A study of Mus musculus with 5 samples.

Results

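The methylation of 8 mouse genes of the piRNA pathway and of germ granules was followed through 5 libraries: Mael, Mov10l1, Tdrd1, Asz1, Piwil2, Stk31, Ddx4 and Dazl. Each gene was represented by the longest CpG island overlapping 1000 bp around either of its ends or, where no island was listed in all 5 libraries, by the longest island shore, the flank of about 2 kb beside an island. This gave a region to 5 of the 8 genes, an island for Mael, Ddx4 and Dazl and a shore for Mov10l1 and Tdrd1, among 12081 of 21900 protein-coding genes with a region. Asz1, Piwil2 and Stk31 had none by this rule.

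CpG methylation was read by reduced representation bisulfite sequencing, in which the enzyme MspI cuts DNA at CCGG and bisulfite turns unmethylated cytosines into uracil. All cells were of the C57BL6 strain, with 1 library per group, so no value has a replicate error and no test was possible. Germ cell-like cells were made from parthenogenetic embryonic stem cells (pESC-PGCLC) and from female embryonic stem cells (ESC-PGCLC), by 46 h of epiblast-like culture with activin A and bFGF and 4 days of floating culture with BMP4, LIF, SCF and EGF, and were sorted for the surface markers CD61 and SSEA1 together. Primordial germ cells (PGC) were taken from E12.5 gonads, an embryonic stage in days, with SSEA1 beads, pESC derive from an egg without a sperm genome, and female ESC are the biparental line. Both stem cell lines were grown on feeder cells with serum and LIF, and were passed through a medium with inhibitors and LIF before induction. The labels do not say whether a line is 1 clone, how many embryos gave the PGC, or their sex.

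piRNAs are small RNAs that PIWI proteins carry in germ cells, where they direct the silencing of transposons. Much of this work takes place in germ granules, RNA-protein bodies near mitochondria and the nucleus. In the mouse, promoters of several of these genes are known to be methylated and silent in somatic cells and to lose methylation as primordial germ cells settle in the gonad.

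The start of Mael, which encodes a protein needed for transposon silencing in the male germline, and that of Dazl, an RNA-binding regulator of translation and a standard germ cell marker, lie inside their measured islands. Their promoters are shown because the reported levels are those of CpG sites like these. Capitals mark the CpG dinucleotides, 18 in Mael and 20 in Dazl, in the 250 bases before the start site (RefSeq, GRCm38.p6, minus strand in both, written 5′ to 3′). The measured island covers 221 of these bases at Mael and 171 at Dazl, in each case those next to the start site.

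Mael, chr1:166238745-166238994: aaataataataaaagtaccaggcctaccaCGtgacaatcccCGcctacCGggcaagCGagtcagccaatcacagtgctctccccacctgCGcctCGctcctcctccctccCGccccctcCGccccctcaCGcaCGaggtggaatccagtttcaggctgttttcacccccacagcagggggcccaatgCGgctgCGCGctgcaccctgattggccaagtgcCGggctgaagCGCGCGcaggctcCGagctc

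Dazl, chr17:50293621-50293870: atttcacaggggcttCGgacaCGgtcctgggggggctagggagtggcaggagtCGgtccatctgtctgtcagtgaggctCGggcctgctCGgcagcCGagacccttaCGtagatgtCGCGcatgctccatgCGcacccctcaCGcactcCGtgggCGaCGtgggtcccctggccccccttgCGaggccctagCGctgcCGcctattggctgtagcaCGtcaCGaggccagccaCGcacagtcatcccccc

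An E-box with the letters CACGTG, which holds a CpG in its centre and is read by factors of the MYC and MAX family, was present in the promoter windows of 5 of the 7 genes with a RefSeq promoter of 300 bases. It was found in 7.15% of all 32851 promoters of that length and in 11.5% of the 10320 with at least 17 CpG, the number in Asz1, the lowest of the 7. The motif is its own reverse complement, so both strands give the same matches. The windows of 30 bases that hold it are given with the motif in capitals, on the strand of the gene.

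Mael: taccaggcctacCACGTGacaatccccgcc
Mov10l1: ccttCACGTGctaaccgccaacctctcgtg
Tdrd1: tggggctgcgcgCACGTGggagtaaactgc
Stk31: aggccggccaccCACGTGaccagggctgcg
Ddx4: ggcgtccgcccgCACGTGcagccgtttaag

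Counted from the start site, with negative positions before it, the motif began at -223 in Mael, -246 in Mov10l1, -11 in Tdrd1, -55 in Stk31 and -29 in Ddx4. TCCCGC, the core read by E2F factors, was present on either strand in Mael (at 2 places) and in Ddx4, against 46.9% of promoters with at least 17 CpG and 20.0% of all. These letters do not overlap the E-box in any of the windows. Asz1 and Dazl held neither. MspI sites, on which the assay depends, numbered 5 in the window of Ddx4, 4 in Mael, 2 in Asz1, 1 each in Tdrd1, Stk31 and Dazl, and 0 in Mov10l1, against a median of 3 in promoters with at least 17 CpG.

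The 5 measured genes fell at 3 heights. Mov10l1, an RNA helicase that feeds piRNA precursors into the pathway, and Tdrd1, a Tudor-domain protein that holds PIWI proteins in the granule, had the most methylated regions, with means over the 5 libraries of 58.2% and 59.0%. Mael (25.7%) and Dazl (20.7%) were intermediate, and Ddx4, the mouse homologue of the helicase vasa and a core granule component, was low at 9.43%. The first 2 are shores and the last 3 are islands, so in these regions alone gene and region class cannot be told apart. Among shores, that of Dazl had a mean of 58.6%, near those used for Mov10l1 and Tdrd1. The other Tdrd1 shore (45.8%) and those of Ddx4 (27.2%) and Mael (26.5%) were lower. The Tdrd1 island, listed in 4 libraries, was at 8.75% to 22.2%.

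The Mov10l1 shore (chromosome 15, 88983169 to 88985170, mm10, from 278 bp after the gene's start) was at 53.3% in pESC-PGCLC, 63.2% in ESC-PGCLC, 49.1% in PGC, 57.3% in pESC and 68.0% in female ESC. Both libraries of the biparental line were thus above both of the parthenogenetic line, and PGC was the lowest. The Tdrd1 shore (chromosome 19, 56826522 to 56828523, from 351 bp after the start) was at 57.6% in pESC-PGCLC, 54.3% in ESC-PGCLC, 49.2% in PGC, 68.4% in pESC and 65.4% in female ESC. Here the stem cells stood highest, the germ cell-like cells between, and PGC again lowest, and within each pair the parthenogenetic library was the higher one.

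The Mael island (chromosome 1, 166238497 to 166238965) was at 21.8% in pESC-PGCLC, 30.4% in ESC-PGCLC, 22.9% in PGC, 22.5% in pESC and 31.0% in female ESC. The levels form 2 sets, the biparental line at 30.4% and 31.0% and the other 3 libraries between 21.8% and 22.9%. The Dazl island (chromosome 17, 50292684 to 50293791) was at 18.0% in pESC-PGCLC, 22.9% in ESC-PGCLC, 16.3% in PGC, 20.9% in pESC and 25.5% in female ESC, an order with PGC lowest and female ESC highest. The Ddx4 island (chromosome 13, 112651959 to 112652503) was at 9.20% in pESC-PGCLC, 9.58% in ESC-PGCLC, 10.2% in PGC, 8.09% in pESC and 10.1% in female ESC. Its whole range was 2.14 points, and PGC was at its upper end.

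**Figure D1:**
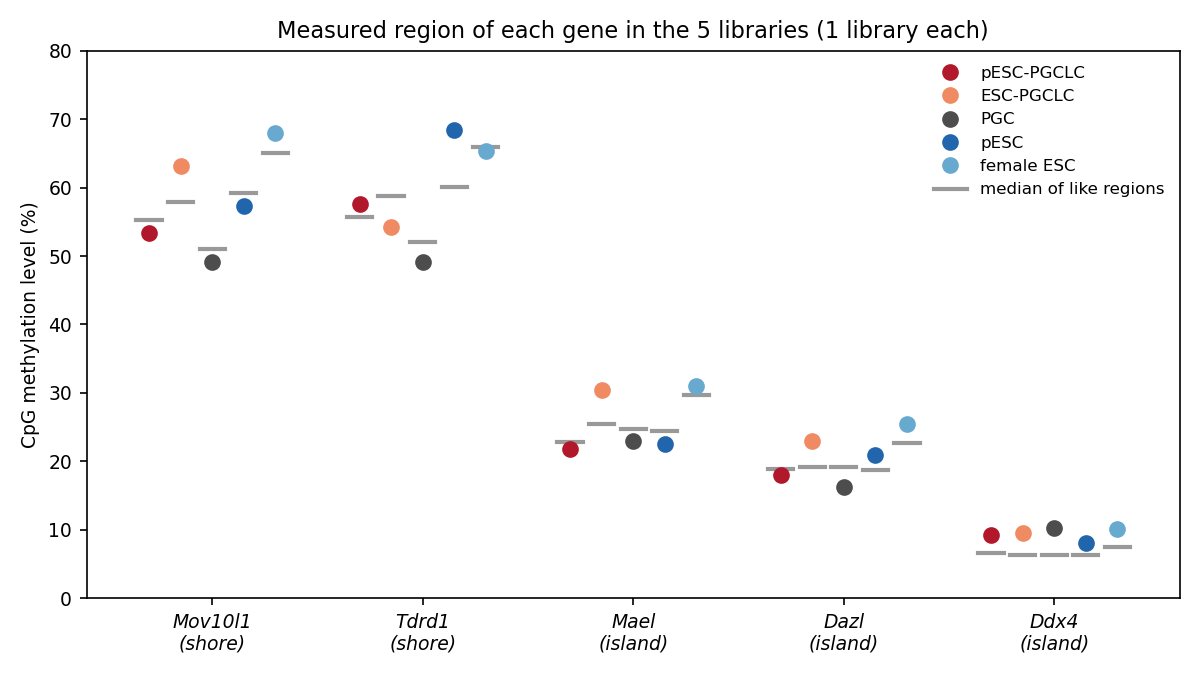
CpG methylation level (%) of the measured region of Mov10l1, Tdrd1, Mael, Dazl and Ddx4, 1 point per library, with grey bars for the median of islands or shores of like mean level in the same library. PGC is lowest at Mov10l1 (49.1%), Tdrd1 (49.2%) and Dazl (16.3%), and Ddx4 stays between 8.09% and 10.2%. PGC is also lowest in 78.5%, 78.6% and 28.9% of the regions like Mov10l1, Tdrd1 and Dazl.

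At Dazl, Ddx4 and Tdrd1 the island was less methylated than its shores in every library that listed both, while Mael showed no such step. The Dazl shore before the start (50293791 to 50295792) was at 56.6% in pESC-PGCLC, 52.3% in ESC-PGCLC, 50.9% in PGC, 67.4% in pESC and 65.9% in female ESC, which is 29.4 to 46.4 points above the island in the same library. The shore at Ddx4 (112652503 to 112654504) runs from position -1871 to 130 bp from the gene's start and was at 27.8% in pESC-PGCLC, 30.6% in ESC-PGCLC, 16.9% in PGC, 31.1% in pESC and 29.6% in female ESC. PGC stood apart from the other 4 there, which the island of the same gene did not show. RefSeq also gives Ddx4 a start at 112652310, inside the island.

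The shore within Mael (166236496 to 166238496) was at 25.7% in pESC-PGCLC, 34.0% in ESC-PGCLC, 18.0% in PGC, 24.4% in pESC and 30.3% in female ESC. Shore minus island ran from -4.83 points (PGC) to 3.91 points (pESC-PGCLC). At Tdrd1 the island over the start (56826156 to 56826522) was listed in 4 libraries, with 18.5% in pESC-PGCLC, 8.75% in ESC-PGCLC, 20.0% in PGC and 22.2% in female ESC, and lay 20.5 to 45.6 points below the shores on either side. The other Tdrd1 shore, before the start (56824155 to 56826155), is 1 base shorter than the one used and was at 43.0%, 45.1%, 40.5%, 49.0% and 51.4% in pESC-PGCLC, ESC-PGCLC, PGC, pESC and female ESC. PGC was lowest in both Tdrd1 shores, while female ESC was above pESC before the start and below it within the gene.

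**Figure D2:**
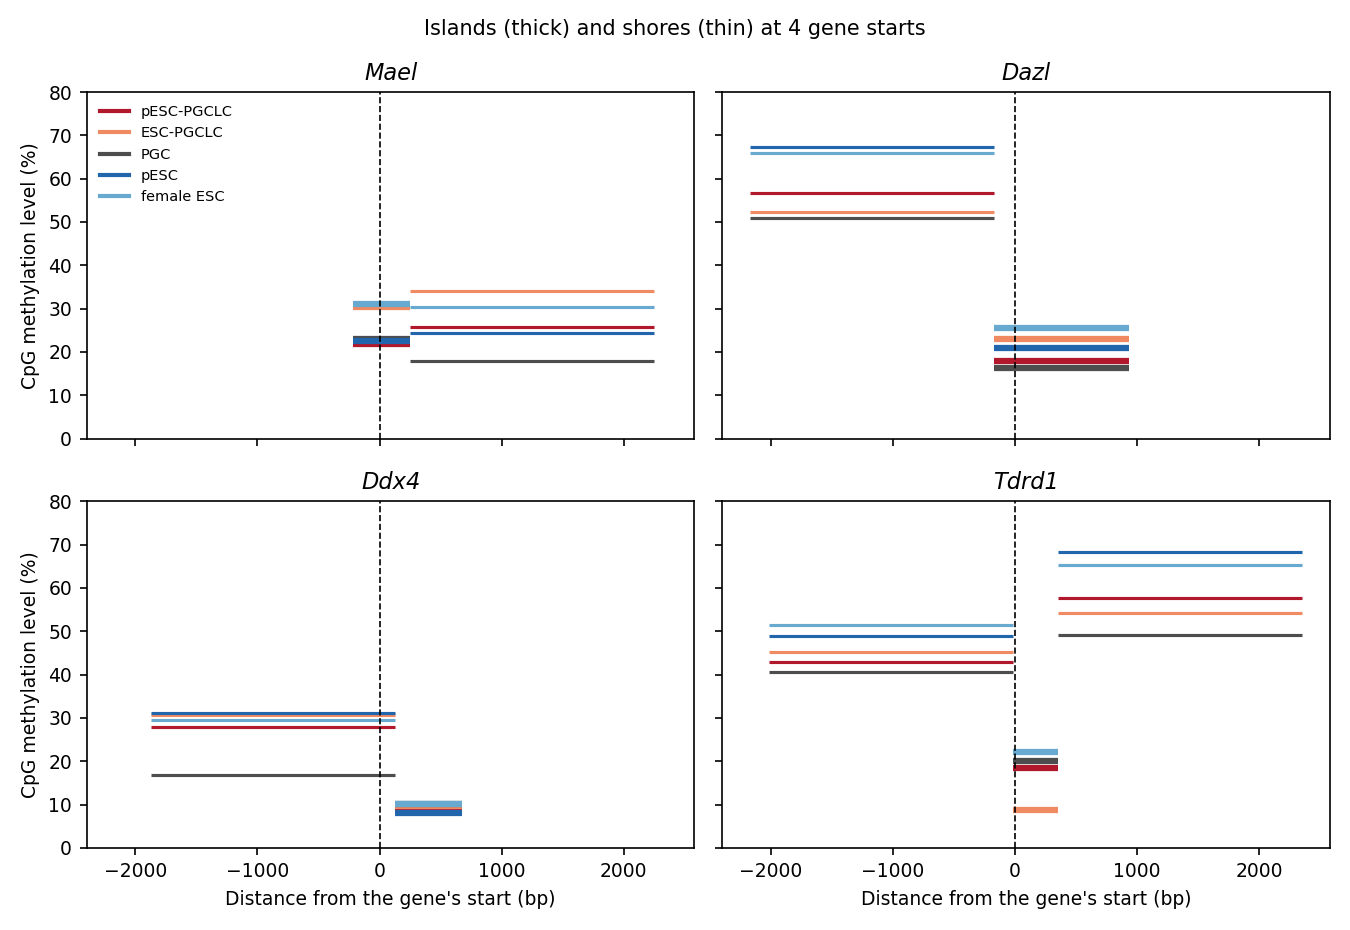
CpG methylation level (%) of every listed island (thick lines) and shore (thin lines) at the starts of Mael, Dazl, Ddx4 and Tdrd1, against distance from the gene's start in bp, coloured by library. The islands of Dazl, Ddx4 and Tdrd1 lie below their shores in each library that lists them, and the PGC line (16.9%) lies below the others in the Ddx4 shore.

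Piwil2, which encodes the PIWI protein MILI, had a shore within the gene, 5661 bp from its nearer end and outside the rule (chromosome 14, 70429236 to 70431237). Its levels were 12.1% in pESC-PGCLC, 13.1% in ESC-PGCLC, 17.7% in PGC, 10.2% in pESC and 16.2% in female ESC, so PGC was the highest there. Stk31, a Tudor-domain kinase-like protein, had a shore listed in 2 libraries, at 42.9% in pESC-PGCLC and at exactly 0 in ESC-PGCLC. With depth unknown, no difference can be read from that pair. For Asz1, an ankyrin-repeat protein of the granule's mitochondrial face, no region was used here.

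In pESC, 4 of the 5 measured genes were lower than in female ESC, with a median difference of -4.54 points (range -10.7 to 2.96), against -2.66 points over the 1382 islands and shores of like mean level and -0.16 points over all islands and shores. Of the 1382, 80.8% were lower in pESC. The 1382 pool the like regions of all 5 genes, and 669 of them are islands like Ddx4. A median over the pool therefore does not weight the genes equally. By gene, the median of like regions was -4.95 points for Mael, -5.58 for Mov10l1, -5.52 for Tdrd1, -3.86 for Dazl and -1.17 for Ddx4. The median of the genes was -1.60 points with each library scaled to 1 overall level and -0.668 points with the length-weighted mean of all islands and shores at each gene. Of the genes, 1 differed by at least 10 points, the size used throughout for a call: Mov10l1, at -10.7 points, or -3.35 points with scaling. Regions at least 10 points lower made up 2.88% of all islands and shores and 8.25% of the pooled 1382. Later medians and shares given for like regions without a gene's name are over the same pool. Like level means the same class and a mean over the 5 libraries within 5 points of the gene's. The differences of Mael (-8.54 points), Mov10l1, Dazl (-4.54) and Ddx4 (-1.99) lay within the 5th to 95th percentile of their like regions. Tdrd1 did not: it was 2.96 points higher in pESC, where the 435 like shores had a median of -5.52 and a 95th percentile of 2.23. The shore before the Tdrd1 start differed by -2.35 points, inside its range.

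In unscaled levels of the regions of the rule, pESC-PGCLC and ESC-PGCLC showed nearly the same differences between the lines as the stem cells they were made from. Mael differed by -8.63 points between pESC-PGCLC and ESC-PGCLC, and by -8.54 points between pESC and female ESC. At Mov10l1 the differences were -9.82 points between the germ cell-like libraries and -10.7 points between the stem cells, at Dazl -4.94 and -4.54, at Tdrd1 3.25 and 2.96, and at Ddx4 -0.38 and -1.99. The 2 differences of a gene share no library, and they differed from each other by between -0.40 (Dazl) and 1.61 points (Ddx4), with a median absolute value of 0.40 points. Among the 1382 like regions the median absolute value was 2.79 points, and 31.5% were within 1.61 points. That limit is the largest value of the genes themselves, so all 5 lie within it by definition. The share is a description and tests nothing. The median of the signed values over the genes was 0.298 points, or -2.62 points with each library scaled to 1 overall level. With that scaling the 2 differences lay further apart at each gene but Ddx4 (0.0926 and -0.828). They were -7.22 and -3.35 points at Mov10l1, 6.24 and 9.53 at Tdrd1, -7.57 and -4.94 at Mael, and -4.05 and -1.60 at Dazl. With the length-weighted mean they had opposite signs at Dazl and at Ddx4. The median difference of pESC-PGCLC minus ESC-PGCLC was -4.94 points over the genes (-2.26 with the length-weighted mean) and -0.68 points over the like regions. By gene, the like regions had medians of -1.70 points for Mael, -2.91 for Mov10l1, -2.95 for Tdrd1, -0.644 for Dazl and 0.0334 for Ddx4. All 5 genes were inside the range of their like regions and 0 differed by 10 points.

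**Figure D3:**
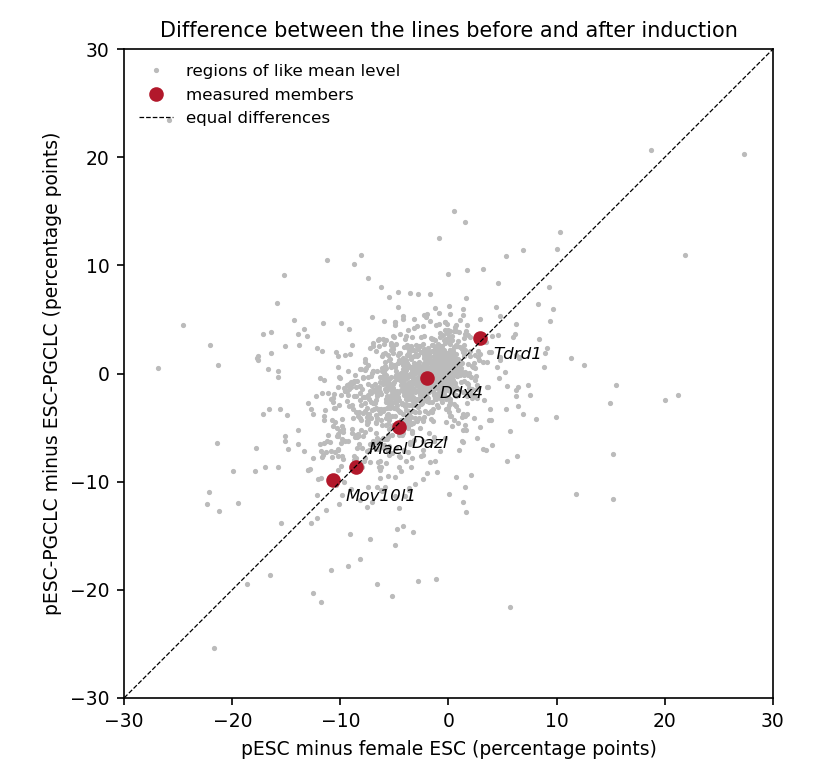
Difference between the parthenogenetic and the biparental line in percentage points, before induction (x axis, pESC minus female ESC) and after it (y axis, pESC-PGCLC minus ESC-PGCLC), for the 5 measured genes (red) and for regions of like mean level (grey; 5 lie beyond the axes). In these unscaled levels the genes lie close to the dashed line of equal differences, from Mov10l1 (-10.7 and -9.82) to Tdrd1 (2.96 and 3.25). With each library scaled to 1 overall level, not drawn, all but Ddx4 lie further from it (Mov10l1 -3.35 and -7.22, Tdrd1 9.53 and 6.24).

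Induction went with lower levels in both lines, by medians that turned to 0.787 and 0.798 points when each library was scaled to 1 overall level. In ESC-PGCLC all 5 genes were lower than in female ESC, with a median of -2.56 points (-2.53 in like regions and -4.80 with the length-weighted mean), and in pESC-PGCLC 4 of 5 were lower than in pESC, with a median of -2.96 points (-0.88 in like regions). Of the like regions, 80.6% were lower after induction in the biparental and 62.7% in the parthenogenetic line. Tdrd1 was the gene past 10 points in both, with -11.1 points in the biparental and -10.8 points in the parthenogenetic line. Neither call stood with the shore before the Tdrd1 start, 1 base shorter, which changed by -6.30 and -5.97 points, or with scaling (-1.51 and -4.80 points). For that size and direction the background was 4.00% of all regions and 10.4% of like regions in the biparental line, and 1.52% and 3.98% in the parthenogenetic line. The change of Mov10l1 was -4.80 points in the biparental and -3.97 points in the parthenogenetic line, that of Dazl -2.56 and -2.96, and that of Mael -0.55 and -0.65. Ddx4 changed by -0.50 and 1.11 points. All of these lay within the range of like regions. The shores like Tdrd1 had median changes of -6.37 points in the biparental and -4.28 points in the parthenogenetic line.

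In the regions of the rule, PGC had the lowest level of the 5 libraries at Mov10l1, Tdrd1 and Dazl. It was also the lowest in 78.5% of the shores like Mov10l1, 78.6% of those like Tdrd1 and 28.9% of the islands like Dazl. For the islands like Mael and Ddx4 the shares were 20.5% and 38.0%. The place of PGC at the genes depended on the region and on the overall level of a library. With the length-weighted mean of all islands and shores PGC was the lowest at all 5 genes, Mael and Ddx4 included (15.5% at Ddx4, against 23.8% to 26.2% in the other libraries). With each library scaled to 1 overall level it was the lowest at Dazl alone, and pESC was the lowest at Mael, Mov10l1 and Ddx4 and ESC-PGCLC at Tdrd1. Against female ESC, 4 of 5 genes were lower in PGC, as were 78.9% of like regions, with a median of -9.23 points (-4.09 in like regions). Of the 5, 2 were lower by at least 10 points, Mov10l1 (-18.8) and Tdrd1 (-16.2). With scaling the median was -2.34 points and neither gene was past 10 points (-2.72 and -0.493). The background was 9.20% of all regions and 31.0% of the pooled like regions. Taken gene by gene, like regions had medians of -13.9 points for Mov10l1, -14.0 for Tdrd1, -5.30 for Mael, -3.47 for Dazl and -1.30 for Ddx4. Dazl was at 63.8% of its female ESC level in PGC, Mov10l1 at 72.3%, Mael at 73.8% and Tdrd1 at 75.2%, while Ddx4 was at 101%. Like regions were at a median of 85.4% for Dazl, 78.6% for Mov10l1, 82.3% for Mael, 78.6% for Tdrd1 and 80.5% for Ddx4, and every gene's difference lay within their range.

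Against pESC, 3 of 5 genes and 69.7% of like regions were lower in PGC. The median was -4.69 points (-1.83 in like regions), or -10.7 points with the length-weighted mean and 0.626 points with libraries scaled to 1 overall level. Tdrd1 differed by -19.2 points, below the 5th percentile (-16.7) of its like shores, and was the 1 gene past 10 points, with backgrounds of 3.54% and 13.9%. The shore before the Tdrd1 start differed by -8.55 points, inside the range of its like shores (-16.6 to 0.319) and short of 10 points. The shores like the Tdrd1 shore of the rule had a median of -8.46 points. This comparison of PGC with pESC shares pESC with the one in which Tdrd1 was high. In the regions not used by the rule, the Ddx4 shore differed by -14.2 points (5th percentile of its like shores -13.4), and the Piwil2 shore was 7.50 points higher (95th percentile 6.80). The Dazl shore (-16.4 points) and the Mael shore (-6.35) were inside theirs.

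ESC-PGCLC stood above PGC at 4 of the 5 genes and in 69.8% of like regions. The median difference was 6.67 points (10.6 with the length-weighted mean), against 1.60 points in like regions, and Mov10l1, 14.0 points higher, was the 1 gene past 10 points (2.47% of all regions and 11.4% of like regions), with 7.96 points under scaling, where Tdrd1 turned to -1.01 points. Mael was 7.58 points higher, Dazl 6.67 and Tdrd1 5.15, and Ddx4 differed by -0.65 points, all within the range of like regions. Mael, Mov10l1 and Dazl were above 89.0%, 91.5% and 91.3% of theirs. Like regions had medians of 0.836 points for Mael, 7.57 for Mov10l1, 7.67 for Tdrd1, 0.537 for Dazl and 0.357 for Ddx4. The shores at Mael and Ddx4, outside the rule, were 16.0 and 13.7 points higher in ESC-PGCLC, both above the 95th percentiles of their like shores (10.8 points at Mael). The other shores outside the rule lay within theirs: 4.61 points before the Tdrd1 start, 1.40 points at Dazl, above 11.0% of its like shores, and -4.56 points at Piwil2, the opposite direction. Shores of Nr5a1 and Tcf21, transcription factors of the gonad's somatic cells and 2 of 6 such genes measured, were also higher in ESC-PGCLC than in PGC, by 13.9 and 11.4 points. The nearly unmethylated islands of the rest differed by -0.28 (Amh), 0.16 (Foxl2), 0.19 (Wt1) and 0.43 points (Sox9). Shores like Mov10l1 ran from -1.52 to 15.3 points (5th to 95th percentile), though Nr5a1 (mean 66.5%) and Tcf21 (36.3%) lie at other levels. The part of gonadal somatic cells in the PGC levels was not tested.

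Between pESC-PGCLC and PGC the 5 genes differed by -1.05 points (Mael) to 8.40 points (Tdrd1), with a median of 1.73 points against 0.87 in like regions (5.49 with the length-weighted mean and 0.742 with scaling), 3 higher and 2 lower, none past 10 points and all within the range of like regions. Of the like regions, 63.0% were higher in pESC-PGCLC. Among the shores outside the rule, that of Ddx4 was 10.9 points higher in pESC-PGCLC (95th percentile 8.22). Both comparisons with PGC share that library, so the low PGC level of the Ddx4 shore enters each of them.

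**Figure D4:**
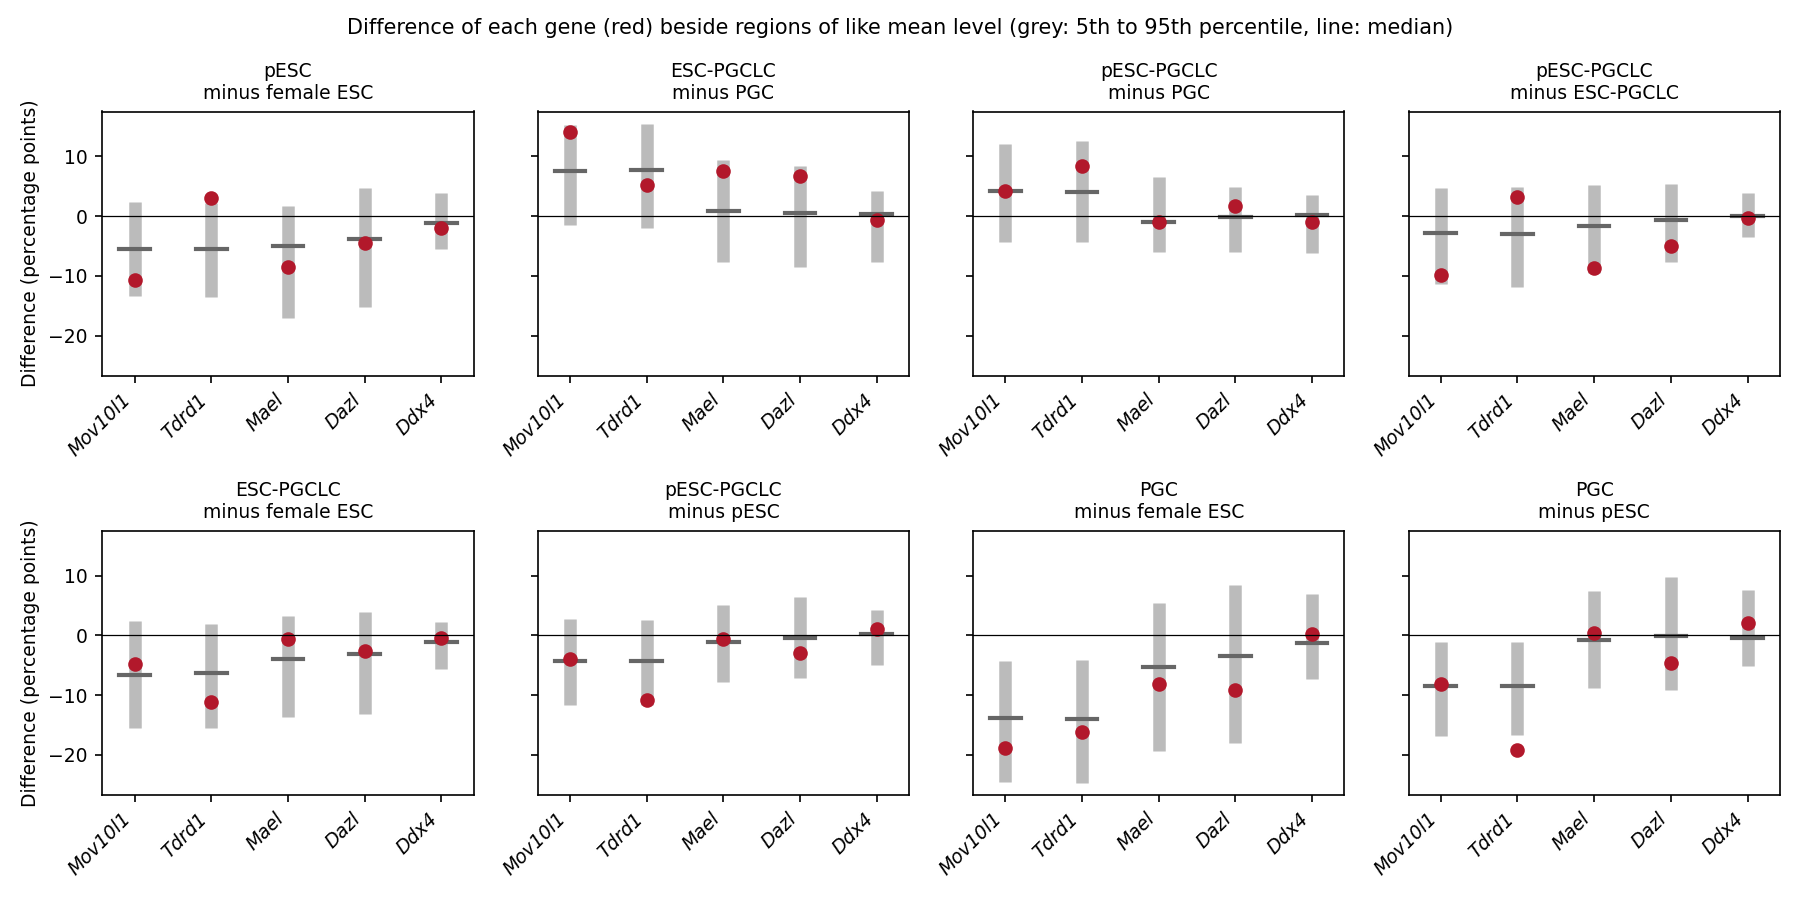
Difference in percentage points for the 8 pairs of libraries, for each measured gene (red points) beside the median (line) and the 5th to 95th percentile (grey bar) of regions of the same class and like mean level. The points outside the bars are Tdrd1 in pESC minus female ESC (2.96) and in PGC minus pESC (-19.2), and its other shore, not drawn, lay inside in both (-2.35 and -8.55).

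Libraries themselves differed in overall level. Over the like regions the mean was 26.3% in pESC-PGCLC, 27.5% in ESC-PGCLC, 25.1% in PGC, 27.9% in pESC and 31.1% in female ESC, so female ESC was the highest and PGC the lowest before any gene is looked at. Cytosines in CHH context, a measure of bases that were not converted or carry non-CpG methylation, stood between 0.232% and 1.02% in the measured regions except for Mael in ESC-PGCLC, at 1.87%. The 2 lines differed at 10 maternally methylated imprinted genes, with medians of 48.2% in pESC-PGCLC, 7.45% in ESC-PGCLC, 40.6% in PGC, 48.6% in pESC and 9.20% in female ESC. Relative to female ESC, 10 of 10 had the higher level in pESC and 10 of 10 in PGC, so PGC stood near the parthenogenetic libraries at these genes. Single genes ran from 1.35% (Plagl1) to 36.9% (Peg13) in female ESC and from 9.22% (Mcts2) to 63.2% (Peg13) in PGC. Whether the levels of female ESC and PGC are those their labels call for was not tested. RNA was not measured, so marker expression could not be checked. Islands or shores of most marker genes were nearly unmethylated, with list medians of 1.32% to 1.40% (Sox2, the 1 pluripotency gene measured), 1.80% to 2.60% (2 germ cell specification genes), 1.42% to 1.86% (6 gonadal somatic genes), 1.86% to 3.17% (2 fibroblast genes) and 1.23% to 1.60% (8 ubiquitous genes). The exceptions with a mean of at least 10% were the shores of Actb (14.2%) and of 2 of the 6 gonadal somatic genes. Nr5a1 was at 64.0% in pESC-PGCLC, 70.2% in ESC-PGCLC, 56.3% in PGC, 64.0% in pESC and 77.8% in female ESC, and Tcf21 at 40.6%, 35.0%, 23.7%, 36.3% and 46.2% in the same order. Both were lowest in PGC and highest in female ESC, as Mov10l1 and Dazl were, with differences of -21.6 and -22.5 points between PGC and female ESC. Among the shores like Mov10l1, PGC was the lowest in 78.5% and female ESC the highest in 84.1%. The part of other cell types in the levels was not tested.

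Of 40 further names of the pathway or the granule, 37 matched a RefSeq gene; 24 of these had a region, and 5 of the 24 had a mean of at least 10%. Tdrd12, a Tudor-domain protein of piRNA production, was at 44.2% in pESC-PGCLC, 56.8% in ESC-PGCLC, 51.8% in PGC, 56.8% in pESC and 68.1% in female ESC (shore). Btbd18, a nuclear protein needed for pachytene piRNA transcription, was at 29.2%, 38.9%, 30.7%, 31.9% and 43.3% in the same order (island). In both, as at every measured member but Tdrd1, each parthenogenetic library was below its biparental counterpart. Of the regions like the members, 80.8% were lower in pESC than in female ESC and 61.1% in pESC-PGCLC than in ESC-PGCLC. Fkbp6, a co-chaperone of the pathway, was at 41.3% in pESC-PGCLC, 49.0% in ESC-PGCLC, 41.7% in PGC, 54.0% in pESC and 51.9% in female ESC. Tdrd6, a protein of the chromatoid body of spermatids, had its highest level in pESC (32.6%) and 12.3% to 22.4% in the other libraries, and Henmt1, which methylates the ends of piRNAs, lay between 11.5% (PGC) and 18.0% (female ESC).

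The rest had means of at most 5.25%, that of Boll, a relative of Dazl, followed by Rnf17 (3.79%), a Tudor-domain granule protein. Rnf17 was at 8.63% in PGC and between 1.68% and 3.56% elsewhere. Between PGC and female ESC, 3 of the 24 were at least 10 points lower in PGC and 0 higher, against the 9.20% of all regions given above. Median levels of the 24 lay between 1.41% (pESC) and 1.81% (ESC-PGCLC). Of other germline lists, 14 meiotic chromosome genes had medians of 9.78% in pESC-PGCLC and 12.1% in female ESC, and 6 testis genes known for methylated islands 32.5% in pESC-PGCLC and 45.3% in female ESC.

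**Figure D5:**
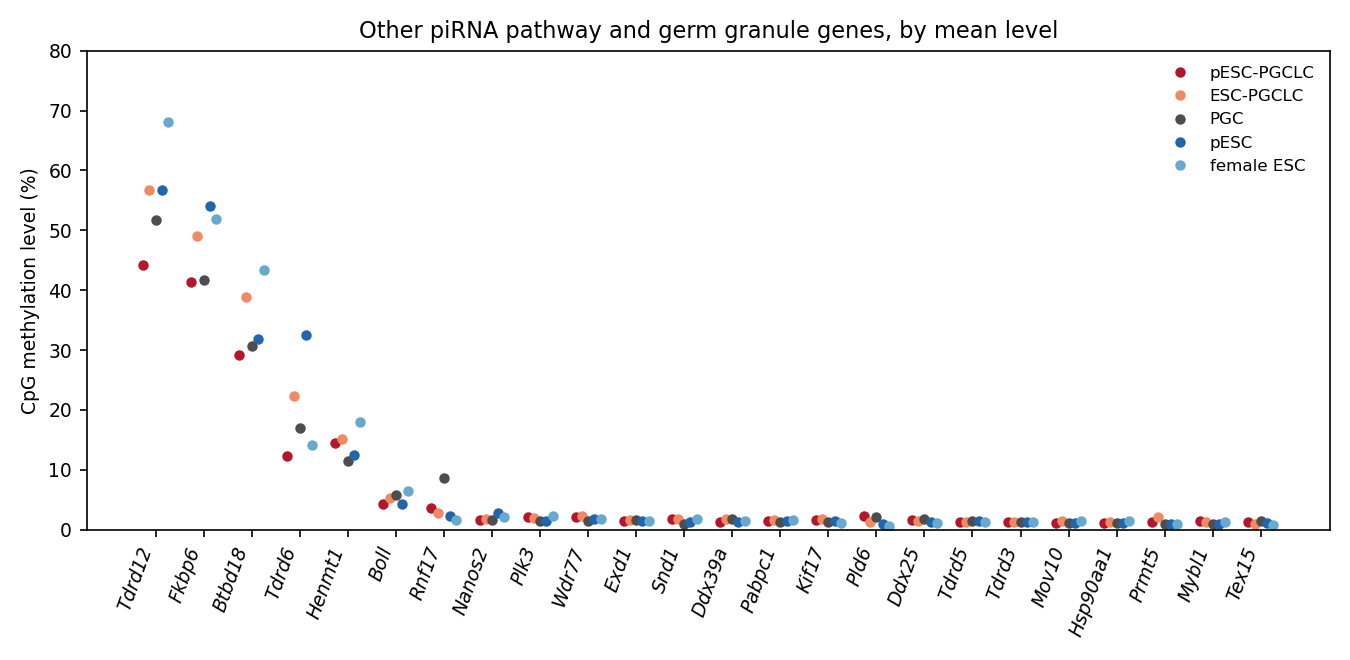
CpG methylation level (%) of 24 other piRNA pathway and germ granule genes, ordered by mean level, 1 point per library. Tdrd12, Fkbp6, Btbd18, Tdrd6 and Henmt1 stand above a mean of 10%, and the rest lie near 0 apart from Boll and from Rnf17 in PGC (8.63%).

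For each measured gene, the 2 genes nearest in level over the 5 libraries were sought outside the lists. Members and all listed genes were left out of this search, so it could return no listed gene of the pathway or the germline. Likeness was taken as the root mean square difference over the 5 libraries among protein-coding genes with a region of the same class, 9718 for islands and 861 for shores. Nearest to Mael were Chst13 (2.01 points) and Dcdc2c (2.93), to Dazl Zfp180 (2.09) and Fam50b (2.14), and to Ddx4 Sema6b (0.38) and Cspg4 (0.78). For the shores, Scn10a (3.42) and Angptl6 (3.51) were nearest to Mov10l1, and Cyp27a1 (2.77) and Scn10a (4.56) to Tdrd1.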

How the data were processed

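Per the labels' protocols, DNA of each cell population was cut with MspI, treated with bisulfite and sequenced as paired reads. The submitters' processing notes name Bismark 0.16.3, Bowtie2 and the build mm10; trimming, coverage filters and the drawing of regions are not stated there. The authors deposited 1 value per region, a fraction from 0 to 1, by region class and cytosine context, printed here as percent. No read counts or coverage stand beside them, so depth and counting error are unknown. Promoter and exon entries carry identifiers that were not paired with symbols and were not used.

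Genes were tied to islands and shores by RefSeq coordinates of GRCm38.p6, whose strand comes from the promoter table. Computations used Python 3.11.15, pandas 2.3.3 and numpy 2.4.6. Differences are in percentage points between 2 libraries, called at 10 points with no test. Regions of like level exclude those at the measured genes. The call was tried on simulated levels with an assumed read depth and no noise beyond read counting, and the tie of genes to regions on made-up regions. As the real depth is unknown, this does not give the error of a call in these data. The 8 genes and all lists were chosen with earlier results of these data known. All 8 genes are named; of the other pathway genes, those with a mean of at least 10% are named, and of the rest at most 4, the highest means. For each measured gene, the 2 genes nearest in level are named, with members and listed genes left out of the search. Alternatives were other windows, gene ends, region choices, thresholds, scales and a subtraction of CHH levels.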

Additional observations from a re-analysis of the deposited data

Results flagged for a closer look

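Ddx4 was singled out because its change on induction had opposite signs in the 2 lines: it was 1.11 points between pESC-PGCLC (9.20%) and pESC (8.09%), and -0.503 points between ESC-PGCLC (9.58%) and female ESC (10.1%). The difference of the changes was 1.61 points, and 43.0% of 669 like islands had a smaller absolute value. With each library scaled to 1 overall level both changes were positive, at 1.71 points in the parthenogenetic and 0.787 points in the biparental line. With 1 library per group this difference was not tested.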

How the results depend on the processing

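No paired analysis was possible because each group has 1 library, and no library could be left out. Of 64 alternative values of the median differences in points, 46 stayed within 1.5 times the reported one, 6 turned sign, 8 were smaller by more and 4 larger by more. With the 500 bp window and with the start alone every gene kept its region, so those values could not move. The other Tdrd1 shore left all of these medians unchanged, as Dazl stayed the median gene. The count of 46 includes such values. The standard deviation of the differences of like regions, averaged over the 5 genes, was 4.56 to 7.34 points by comparison, as large as most of the medians. For single genes it ran from 2.54 points (Ddx4, pESC-PGCLC minus ESC-PGCLC) to 9.79 points (Dazl, PGC minus female ESC). It is a spread of single regions and does not give the error of a median over the genes. With a 2 kb window, Tdrd1 was tied to another shore (56822350 to 56824351, at 5.53% to 7.36%), and the median turned to -1.03 points for pESC-PGCLC against PGC and to 0.405 for PGC against pESC. Regions listed in the 2 libraries alone gave -1.03 for pESC-PGCLC against PGC, where the Tdrd1 island took the place of the shore. Scaling each library to 1 overall level turned the median to 0.787 for ESC-PGCLC against female ESC, 0.798 for pESC-PGCLC against pESC and 0.626 for PGC against pESC, and that of the difference of the 2 induction changes to -2.62, beside 0.298 unscaled. Factors ran from 0.864 (female ESC, shores) to 1.14 (PGC, shores), so the small decreases on induction hold for unscaled levels. Scaling gave -2.34 for PGC against female ESC, -1.60 for pESC against female ESC and 0.742 for pESC-PGCLC against PGC. The length-weighted mean of all islands and shores gave -10.7 for PGC against pESC, 10.6 for ESC-PGCLC against PGC, 5.49 for pESC-PGCLC against PGC, -4.80 for ESC-PGCLC against female ESC, -2.26 for pESC-PGCLC against ESC-PGCLC and -0.668 for pESC against female ESC. With the 2 kb window the medians were -0.553 for ESC-PGCLC against female ESC and -0.646 for pESC-PGCLC against pESC, and with regions listed in the 2 libraries -2.66 for pESC-PGCLC against ESC-PGCLC. The last is a median over 6 genes. It takes in the Stk31 shore, from whose pair no difference can be read, and the Tdrd1 island (9.71 points) in place of the shore. Of 50 alternative values of the levels, 13 moved by 5 points or more, all with the length-weighted mean, among them Ddx4 (23.8% in pESC-PGCLC, beside 9.20%) and Dazl (42.8%, beside 18.0%). At 5 points, genes called numbered 2 for pESC against female ESC, 4 for ESC-PGCLC against PGC, 1 for pESC-PGCLC against PGC, 2 for pESC-PGCLC against ESC-PGCLC, 4 for PGC against female ESC and 2 for PGC against pESC. At 25 points 0 were called in any comparison. At 10 points with scaling, the call of Tdrd1 in PGC against pESC was the 1 left, and the other comparisons had 0. With the length-weighted mean, genes called numbered 3 for ESC-PGCLC against PGC, 4 for PGC against female ESC, 3 for PGC against pESC, 1 for pESC against female ESC and 0 elsewhere. The other Tdrd1 shore left 0 called in both induction comparisons and in PGC against pESC. Subtracting CHH levels, the 500 bp window, the start alone, the ratio of levels and the other Tdrd1 shore turned no median; the last, every alternative for the difference of the induction changes, and the regions and scaling for the counts at 10 points, were chosen after values were seen. Against the 50 nearest regions, 3 of 40 differences came to lie outside the range: Mael in ESC-PGCLC against PGC, and Mael and Tdrd1 in pESC-PGCLC against ESC-PGCLC.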
